A study of Mus musculus with 6 samples.

Results

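The sinusoidal endothelial cell genes described here are *Stab1*, *Stab2*, *Lyve1*, *Cdh5*, *Pecam1*, *Kdr*, *Gpr182*, *Clec4g*, *Eng* and *Tek*, 10 of the 55401 genes in the table, chosen by name as markers of the endothelium that lines the liver sinusoids. They were measured by poly(A) RNA sequencing of whole mouse liver (C57BL/6; the labels give neither age nor sex) in 6 libraries, 2 in each of 3 groups. Control mice are labelled as normal, with no treatment named. APAP mice received 400 mg/kg acetaminophen (APAP), a drug that injures the liver at high dose, by intraperitoneal injection and were examined after 6 h. COS+APAP mice received in addition 20 mg/kg costunolide (COS), a sesquiterpene lactone of plants, at both 12 h and 40 min ahead of the APAP injection. The design asks how COS alters the liver injury caused by APAP.

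Some features of the labels bear on every comparison. Titles, source names and treatment fields place the libraries in these groups, whereas the protocol text assigns the pretreatment to samples numbered 5 and 6, which in accession order are the libraries labelled APAP. On that reading the labels of these 2 groups would swap, and each difference between them would take the opposite sign. Both COS+APAP titles carry a prefix of 2 and all other titles a prefix of 1, so a batch tied to the prefix and COS cannot be told apart. No label states that the libraries of a group are from separate animals, and the p-values then measure only the spread between these libraries, which may be technical.

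Sinusoidal endothelial cells form a fenestrated wall without a continuous basement membrane between blood and hepatocytes. They clear waste from blood through scavenger receptors (the stabilins, *Stab1* and *Stab2*), hold the adhesion proteins of other endothelium at lower amounts (*Cdh5*, *Pecam1*) and depend on ligands from hepatocytes and stellate cells that act on *Kdr*, *Tek* and *Eng*. They are known to be injured early in acetaminophen toxicity, with gaps in the wall and red cells entering the space beneath it.

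The libraries held 71115112 to 76669799 estimated counts, and libraries of the same group resembled each other more (r = 0.973 to 0.979 across the 10051 tested genes on the log2(FPKM + 1) scale, where genes are not independent replicates) than libraries of different groups (0.862 to 0.939). Levels are given in FPKM, fragments per kilobase of transcript and sequencing depth, the scale on which genes of different length can be compared. Differences are log2 fold changes ± SE from edgeR's quasi-likelihood test on the estimated counts, and a gene was called when its Benjamini-Hochberg adjusted p over all genes tested was below 0.05. Genes with a mean of at least 1 FPKM over the 6 libraries were tested, which 9 of the 10 genes passed. *Tek*, at a mean of 0.977 FPKM, was tested among the 17050 genes with a mean of at least 0.1 FPKM, a lower minimum planned as an alternative; its further alternatives at that minimum were added after the data were seen.

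All 10 genes had counts in all 6 libraries, from 89 estimated counts (*Tek* in COS+APAP replicate 3) upward. In control the endoglin gene *Eng* and the lectin gene *Clec4g* had the highest levels, with means of 13.8 and 13.3 FPKM, and together made up 60.1% and 59.4% of the summed FPKM of the 10 genes. *Gpr182* followed at 4.34, then *Stab1*, *Stab2* and *Cdh5* at 3.33, 3.29 and 2.65, and *Kdr*, *Tek*, *Lyve1* and *Pecam1* lay between 1.06 and 1.36 FPKM. The order was another in the treated groups: *Clec4g* led in APAP (12.5 FPKM) with *Lyve1* behind *Eng* (7.40), and *Stab1* led in COS+APAP (7.56). Within a group, neighbours in this order such as *Eng* and *Clec4g* or *Stab1* and *Stab2* in control had overlapping library values. Control libraries summed to 43.6 and 46.9 FPKM over the 10 genes, APAP libraries to 52.9 and 50.4, and COS+APAP libraries to 31.7 and 28.9, so the groups did not overlap. In whole liver, fewer cells of a type and less RNA per cell cannot be told apart.

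**Figure D1:**
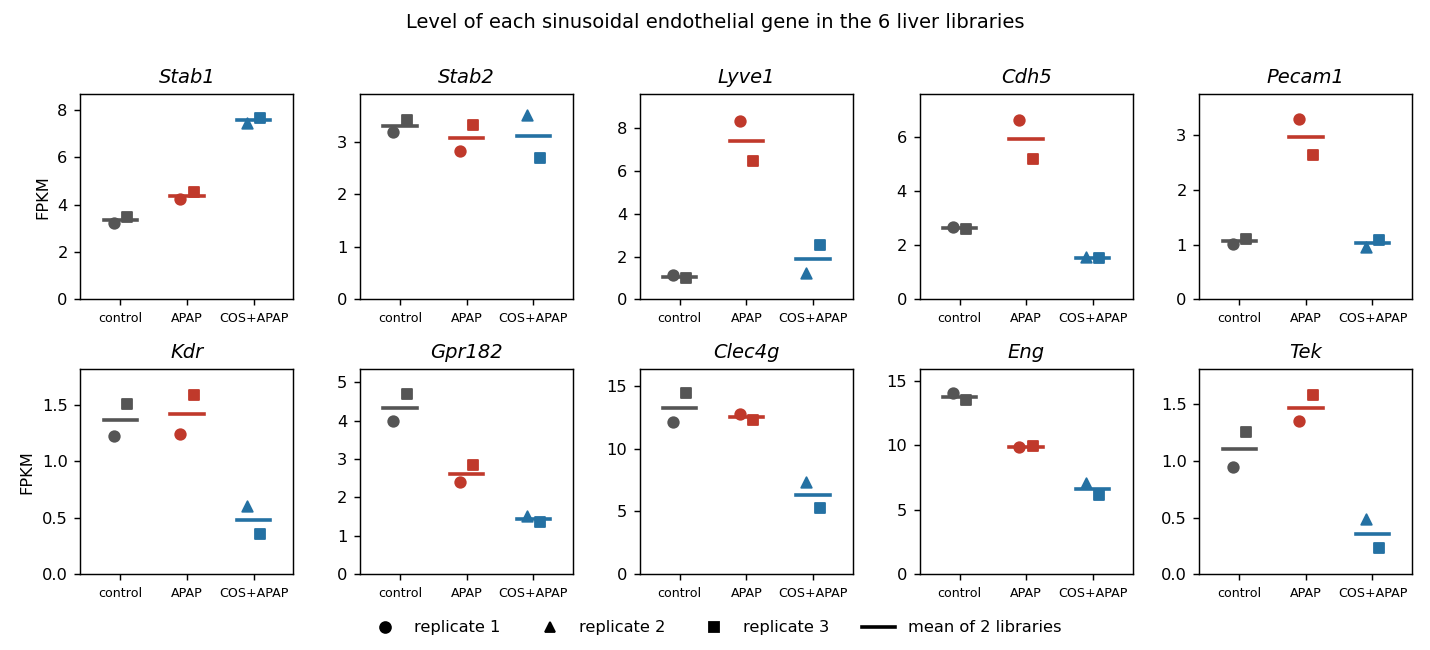
Level of each of the 10 genes in FPKM (vertical axes start at 0 and differ between panels) in control, APAP and COS+APAP livers; each point is 1 library, its shape the replicate number, and the line is the mean of 2 libraries. *Stab1* is highest in both COS+APAP libraries (7.46 and 7.66 FPKM), and *Lyve1*, *Cdh5* and *Pecam1* are highest in both APAP libraries. *Cdh5*, *Kdr*, *Gpr182*, *Clec4g*, *Eng* and *Tek* are lowest in both COS+APAP libraries.

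The 300-base promoter windows of RefSeq (GRCm38.p6) held 6 of the 10 genes, and their 250 bases before the annotated start were searched. Printed here are *Stab1*, the only one of the 10 genes called higher in both treated groups than in control, and the receptor genes *Kdr*, *Tek* and *Eng*, which were lowest together in COS+APAP. Each runs 5′ to 3′ on the strand of its gene and ends at the base before the start, and capitals mark matches, on either strand, to the motifs searched. The motifs were ACNGGAAG for ETS factors (in 6.6% of all 32851 windows of this length), AGATAA for factors of the GATA family (10.0%), CACCC for KLF and SP factors (52.0%), TGANTCA for AP-1 (6.7%), ACAANG for SOX factors (36.3%) and CACGTG for E-box factors (6.0%). The windows are chr14:31168642-31168891 (minus strand), chr5:75978456-75978705 (minus strand), chr4:94739039-94739288 (plus strand) and chr2:32646345-32646594 (plus strand), in the order below.
Stab1: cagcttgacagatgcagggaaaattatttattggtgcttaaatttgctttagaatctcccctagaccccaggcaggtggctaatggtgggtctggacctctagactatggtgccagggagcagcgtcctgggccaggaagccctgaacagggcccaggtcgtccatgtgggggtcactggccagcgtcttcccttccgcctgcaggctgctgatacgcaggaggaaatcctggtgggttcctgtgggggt
Kdr: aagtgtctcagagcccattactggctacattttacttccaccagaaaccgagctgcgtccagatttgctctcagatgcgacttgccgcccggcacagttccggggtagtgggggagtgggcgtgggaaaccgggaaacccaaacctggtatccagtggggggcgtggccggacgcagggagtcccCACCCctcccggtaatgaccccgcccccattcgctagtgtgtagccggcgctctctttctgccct
Tek: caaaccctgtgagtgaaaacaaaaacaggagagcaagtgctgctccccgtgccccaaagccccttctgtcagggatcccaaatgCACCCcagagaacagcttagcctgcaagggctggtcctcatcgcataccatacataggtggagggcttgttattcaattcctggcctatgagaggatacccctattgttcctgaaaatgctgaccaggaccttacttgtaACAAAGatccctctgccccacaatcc
Eng: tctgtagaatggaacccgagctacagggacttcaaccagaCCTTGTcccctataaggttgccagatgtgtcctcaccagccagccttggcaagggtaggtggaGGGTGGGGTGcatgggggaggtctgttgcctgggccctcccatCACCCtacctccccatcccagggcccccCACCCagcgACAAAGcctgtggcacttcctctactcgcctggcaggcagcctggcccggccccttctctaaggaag
The *Stab1* window held no match to any of the 6 motifs. The *Kdr* window held 1 CACCC match, 65 bases before the start, the *Tek* window 1 CACCC (166 bases before) and 1 ACAANG (26 bases before), and the *Eng* window 4 CACCC and 2 ACAANG matches. A pair of the CACCC matches in *Eng*, on the opposite strand, adjoin each other and print as 1 run. None of the 4 windows held an ETS, GATA, AP-1 or E-box match, which says only that these letters are not in these windows. A match describes letters and not a bound site.

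Among the scavenger and uptake receptors, *Stab1* rose in both treated groups and its relative *Stab2* did not pass the test in any comparison. *Stab1* encodes stabilin-1, a clearance receptor also made by some macrophages (ENSMUSG00000042286, chromosome 14, 31139013 to 31168641, minus strand). It was at 3.21 and 3.46 FPKM in control, at 4.22 and 4.54 in APAP and at 7.46 and 7.66 in COS+APAP. The groups did not overlap, and both COS+APAP libraries were highest. *Stab1* rose by 0.53 ± 0.10 in APAP relative to control (adjusted p = 0.0103) and by a further 0.81 ± 0.10 in COS+APAP relative to APAP (adjusted p = 0.00952), and COS+APAP stood 1.34 ± 0.10 above control (adjusted p = 0.00336).

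*Stab2* encodes stabilin-2, the receptor through which the liver removes hyaluronan from blood (ENSMUSG00000035459, chromosome 10, 86841198 to 87008025, minus strand). It lay at 3.18 and 3.41 FPKM in control, at 2.82 and 3.32 in APAP and at 3.51 and 2.69 in COS+APAP, and all 3 groups overlapped. Its log2 fold changes were 0.03 ± 0.16 in APAP relative to control (adjusted p = 0.883), 0.03 in COS+APAP relative to APAP (adjusted p = 0.901) and 0.07 in COS+APAP relative to control (adjusted p = 0.803). The FPKM ratio of *Stab1* to *Stab2* was 1.01 in both control libraries, 1.5 and 1.37 in the APAP libraries, and 2.13 and 2.85 in the COS+APAP libraries. The difference between the changes of both genes was not tested.

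*Lyve1* encodes a hyaluronan receptor shared by sinusoidal and lymphatic endothelium (ENSMUSG00000030787, chromosome 7, 110850607 to 110863239, minus strand). It was at 1.13 and 1.00 FPKM in control, at 8.36 and 6.45 in APAP and at 1.22 and 2.55 in COS+APAP. Both APAP libraries stood far above all others, and the lower COS+APAP library lay close to control. *Lyve1* rose by 2.93 ± 0.40 in APAP (7.64-fold, adjusted p = 0.00385), the largest change of the 10 genes in that comparison, and changed by -1.95 ± 0.38 in COS+APAP relative to APAP (adjusted p = 0.0227). This call was lost without COS+APAP replicate 2, APAP replicate 1 or APAP replicate 3 (adjusted p up to 0.0993). Against control, COS+APAP differed by 0.98 ± 0.38 (adjusted p = 0.123), which became a call without COS+APAP replicate 2 (1.42, adjusted p = 0.0425; over all alternatives 0.0425 to 0.453).

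*Clec4g*, the gene of the C-type lectin LSECtin (ENSMUSG00000074491, chromosome 8, 3707064 to 3718653, minus strand), was at 12.1 and 14.4 FPKM in control and at 12.7 and 12.3 in APAP, where the groups overlapped (0.06 ± 0.19, adjusted p = 0.828). Both COS+APAP libraries were lower, at 7.35 and 5.29 FPKM. *Clec4g* fell in COS+APAP relative to APAP (-0.97 ± 0.19, adjusted p = 0.0224) and relative to control (-0.91 ± 0.19, adjusted p = 0.0263). The first call was lost without COS+APAP replicate 3 or any 1 of the APAP libraries (adjusted p up to 0.1), and the second without COS+APAP replicate 3 or either control library (adjusted p up to 0.105), and also when only the 2 groups compared were fitted.

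*Cdh5* and *Pecam1*, the genes of the adhesion proteins between endothelial cells, were highest in APAP. *Cdh5* encodes VE-cadherin, the cadherin of endothelial adherens junctions (ENSMUSG00000031871, chromosome 8, 104101625 to 104144511, plus strand). It was at 2.69 and 2.61 FPKM in control, at 6.64 and 5.2 in APAP and at 1.55 and 1.53 in COS+APAP. APAP libraries were highest and COS+APAP libraries lowest, without overlap. *Cdh5* rose by 1.3 ± 0.17 in APAP (2.46-fold, adjusted p = 0.00362) and changed by -1.92 ± 0.18 in COS+APAP relative to APAP (adjusted p = 0.00589). Relative to control the COS+APAP difference was -0.62 ± 0.17 (adjusted p = 0.055), just outside the threshold, and 6 of 16 alternatives called it lower.

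*Pecam1* encodes PECAM-1 (CD31), an adhesion protein of endothelium that platelets and leukocytes also carry (ENSMUSG00000020717, chromosome 11, 106654217 to 106750628, minus strand). It was at 1.01 and 1.11 FPKM in control, at 3.29 and 2.64 in APAP and at 0.96 and 1.09 in COS+APAP. Both APAP libraries were apart from the rest, and control and COS+APAP overlapped. *Pecam1* rose by 1.62 ± 0.19 in APAP (3.07-fold, adjusted p = 0.00272) and changed by -1.51 ± 0.19 in COS+APAP relative to APAP (adjusted p = 0.00924), a call that was just lost without COS+APAP replicate 2 (adjusted p = 0.0502, the highest of its alternatives, which began at 1.58e-10). The difference between COS+APAP and control was 0.11 (adjusted p = 0.711).

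The receptors of growth factors, *Kdr*, *Tek* and *Eng*, were lowest in COS+APAP. *Kdr* encodes VEGFR2, the main signalling receptor of vascular endothelial growth factor (ENSMUSG00000062960, chromosome 5, 75932827 to 75978458, minus strand). It was at 1.22 and 1.51 FPKM in control, at 1.24 and 1.59 in APAP and at 0.60 and 0.36 in COS+APAP. Control and APAP overlapped (0.19 ± 0.28, adjusted p = 0.609), and both COS+APAP libraries lay below them. *Kdr* changed by -1.53 ± 0.28 relative to APAP (adjusted p = 0.0204) and by -1.34 ± 0.28 relative to control (adjusted p = 0.0281). Leaving out COS+APAP replicate 3 or an APAP library ended the first call (adjusted p rose to at most 0.0688), and leaving out COS+APAP replicate 3 or either control library ended the second (adjusted p up to 0.11).

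*Tek* encodes TIE2, the receptor of the angiopoietins (ENSMUSG00000006386, chromosome 4, 94739289 to 94874976, plus strand). It was at 0.95 and 1.26 FPKM in control, at 1.35 and 1.58 in APAP and at 0.49 and 0.23 in COS+APAP, where no groups overlapped. *Tek* stood 0.57 ± 0.38 above control in APAP without passing the test (adjusted p = 0.292). In COS+APAP it changed by -2.01 ± 0.39 relative to APAP (adjusted p = 0.0294), a call lost without any 1 of the 6 libraries (adjusted p up to 0.0999). Against control the difference was -1.44 ± 0.39 (adjusted p = 0.07), and DESeq2 and limma called it (adjusted p = 0.00497 and 0.0487; over all alternatives up to 0.22).

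*Eng* encodes endoglin, the co-receptor of BMP9 and TGF-beta (ENSMUSG00000026814, chromosome 2, 32646595 to 32682658, plus strand). It was at 14.1 and 13.5 FPKM in control, at 9.85 and 9.93 in APAP and at 7.09 and 6.17 in COS+APAP, falling from group to group without overlap. The step from control to APAP, -0.34 ± 0.12, missed the threshold (adjusted p = 0.0613) and was called in 5 of 17 alternatives. *Eng* changed by -0.56 ± 0.12 in COS+APAP relative to APAP (adjusted p = 0.0267) and by -0.90 ± 0.12 relative to control (adjusted p = 0.00896). The first of these calls was lost with no filter on low levels and without any 1 of the 4 libraries compared (adjusted p up to 0.117), the second without COS+APAP replicate 3 (adjusted p = 0.0529, the highest of its alternatives, which began at 1.84e-10).

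*Gpr182* encodes a chemokine-scavenging receptor of sinusoidal and lymphatic endothelium (ENSMUSG00000058396, chromosome 10, 127747276 to 127751732, minus strand). It was at 3.99 and 4.69 FPKM in control, at 2.40 and 2.84 in APAP and at 1.52 and 1.36 in COS+APAP, in the same order of groups as *Eng*, without overlap. *Gpr182* changed by -0.59 ± 0.16 in APAP (adjusted p = 0.0309), by -0.84 ± 0.16 in COS+APAP relative to APAP (adjusted p = 0.0222) and by -1.43 ± 0.16 relative to control (adjusted p = 0.00667). The APAP call was lost with no filter and without control replicate 3, APAP replicate 1 or APAP replicate 3 (adjusted p up to 0.128), and the second without any 1 of the 4 libraries compared (adjusted p up to 0.0981).

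Genes on the opposite strand overlap 6 of the 10 genes, and the protocols do not state a stranded library. For *Stab2*, *Cdh5* and *Clec4g* these are antisense genes or pseudogenes with low levels, of at most 0.21 FPKM (*Gm16268*, at *Stab2*), 0 (*Gm29682*, at *Cdh5*) and 0.55 FPKM (*Gm16553*, at *Clec4g*) in any library. The overlapping genes with a mean of at least 1 FPKM lie at *Eng*, *Stab1* and *Gpr182*. *Fpgs* overlaps *Eng* at 61 exon bases (1.51% of the exon bases of *Eng*), *Nt5dc2* overlaps *Stab1* at 112 (1.09%) and *Zbtb39* overlaps *Gpr182* at 74 (1.87%). *Fpgs* was at 41.7 and 35.5 FPKM in control, at 18.9 and 21.8 in APAP and at 34.4 and 31.5 in COS+APAP, so that it was lowest in APAP while *Eng* was lowest in COS+APAP, and both were lower in APAP than in control. *Fpgs* changed by -0.79 in APAP relative to control (adjusted p = 0.00706) and by 0.71 in COS+APAP relative to APAP (adjusted p = 0.0207, lost without any 1 of those 4 libraries). *Zbtb39* was highest in APAP (1.86 and 2.02 FPKM), unlike *Gpr182*, with changes of 0.62 (adjusted p = 0.019, lost in 6 of 17 alternatives) and -0.55 (adjusted p = 0.0474, lost in 12 of 16). *Nt5dc2* lay between 1.49 and 2.40 FPKM in all 6 libraries with all groups overlapping.

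Counted over the 9 tested genes, APAP relative to control had 4 higher (*Stab1*, *Lyve1*, *Cdh5*, *Pecam1*) and 1 lower (*Gpr182*), beside 23.3% of all tested genes higher and 22.1% lower. COS+APAP relative to APAP had 1 higher (*Stab1*) and 7 lower (all but *Stab1* and *Stab2*), beside 11.2% and 11.1% of all tested genes. COS+APAP relative to control had 1 higher (*Stab1*) and 4 lower (*Kdr*, *Gpr182*, *Clec4g*, *Eng*), beside 10.7% and 10.3%. The medians over the 9 genes were 0.19, -0.97 and -0.62, beside -0.0024, 0.0057 and 0.018 over all genes tested. With the lower minimum and all 10 genes, the counts were 4 and 1 (beside 16.4% and 15.6%), 1 and 8 (7.5% and 7.54%) and 1 and 4 (5.99% and 5.65%). The comparisons share groups and are not independent of each other. The 7 lower calls in COS+APAP relative to APAP became 3 without COS+APAP replicate 2 or 3, and 2 without APAP replicate 1 or 3. In these fits the count over all genes dropped too, from 1119 lower to between 324 and 656, as an arm then held 1 library. *Cdh5* was called lower in every one of the 16 alternatives, and *Stab1* higher in every one. Scaling to library totals alone gave 1869 genes higher and 2814 lower in APAP relative to control, and 706 and 1644 in COS+APAP relative to control, where the main scaling gave 2342 and 2219, and 1073 and 1036. Upper-quartile scaling gave 1567 higher and 930 lower in COS+APAP relative to APAP, where the main scaling gave 1130 and 1119. The called differences of the 10 genes kept their sign under these scalings.

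**Figure D2:**
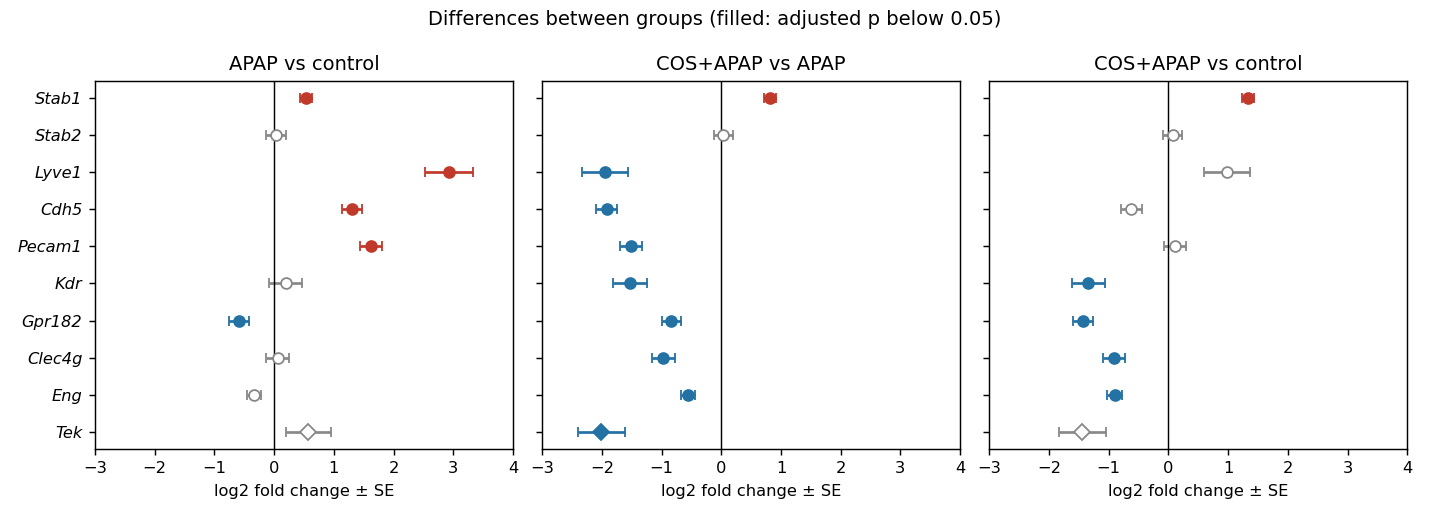
Log2 fold change ± SE of each gene in the 3 comparisons (edgeR, 2 libraries per group); filled symbols have an adjusted p below 0.05, and the diamond marks *Tek*, tested at the lower minimum of 0.1 FPKM. In COS+APAP relative to APAP (middle panel) *Stab1* lies to the right at 0.81, *Stab2* at 0.03, and the other genes to the left of 0, from -0.56 for *Eng* to -2.01 for *Tek*.

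Ligands and partners of these receptors were read from lists of related genes, whose counts stand beside the shares and medians of all tested genes given above. Medians are those of the tested genes of a list. Of 11 listed genes of VEGF signalling 6 were tested, of which 0 rose and 3 fell in APAP relative to control (median -0.69), and 0 rose and 0 fell in COS+APAP relative to APAP (median 0.09). *Vegfa*, the ligand of *Kdr* made by hepatocytes, was at 41.3 and 53.0 FPKM in control, at 19.5 and 25.03 in APAP and at 17.3 and 26.3 in COS+APAP. Both treated groups lay below control and overlapped each other. *Vegfa* fell by 0.95 in APAP (adjusted p = 0.0285) and by 0.95 in COS+APAP (adjusted p = 0.0494, lost in 9 of 16 alternatives), both relative to control, and the ligand *Vegfb* fell by 0.86 (adjusted p = 0.0141) and 0.92 (adjusted p = 0.024). *Plcg1*, a phospholipase downstream of *Kdr*, fell by 0.64 in APAP (adjusted p = 0.0369). The *Vegfa* ligand was thus lower in both treated groups, and *Kdr* in COS+APAP alone among the calls; the difference between these patterns was not tested. Of 8 listed genes of angiopoietin and Tie signalling 3 were tested, and 1 rose and 0 fell in APAP (median 1.03) and 0 rose and 1 fell in COS+APAP relative to APAP (median -1.31). *Tie1*, the orphan partner of *Tek*, was at 1.60 and 1.53, 2.19 and 1.99, and 0.75 and 0.91 FPKM in the 3 groups, without overlap. *Tie1* fell by 1.31 in COS+APAP relative to APAP (adjusted p = 0.0112) and by 0.75 relative to control (adjusted p = 0.0401). *Foxo1*, a transcription factor restrained by TIE2 signalling, rose by 1.03 in APAP (adjusted p = 0.00458). In COS+APAP it stood 0.65 above control (adjusted p = 0.0343) and was not called relative to APAP (-0.38, adjusted p = 0.124).

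Of 21 listed genes of BMP9, endoglin and TGF-beta signalling 11 were tested, and 7 rose and 0 fell in APAP (median 0.92) and 0 rose and 5 fell in COS+APAP relative to APAP (median -0.49). *Tgfbr2* and *Tgfbr1*, the receptors of TGF-beta, rose by 2.31 (adjusted p = 0.00152) and 1.29 (adjusted p = 0.00152) in APAP and fell by 1.48 (adjusted p = 0.0104) and 0.80 (adjusted p = 0.0111) in COS+APAP relative to APAP. The inhibitors of differentiation *Id1* and *Id3*, known targets of BMP signals, rose by 1.48 (adjusted p = 0.00214) and 2.44 (adjusted p = 0.00218) and fell by 1.43 (adjusted p = 0.0074) and 1.81 (adjusted p = 0.0112). Relative to control, *Tgfbr2* and *Tgfbr1* remained higher in COS+APAP (0.83 and 0.49, adjusted p = 0.036 and 0.0331), and *Id1* and *Id3* were not called. These 4 genes are made by many liver cells. *Eng* itself was not called in APAP relative to control (-0.34, adjusted p = 0.0613), and a link between these changes was not tested. *Smad7*, also listed here, was not called in APAP (0.25, adjusted p = 0.355). *Smad6*, below the minimum for the test, was lower in both treated groups than in control. It was at 1.51 and 1.35 FPKM in control, at 0.69 and 0.75 in APAP and at 0.67 and 0.50 in COS+APAP. *Gdf2*, which encodes BMP9 and is made by stellate cells, lay between 2.10 and 4.78 FPKM in the 6 libraries and passed in none of the comparisons.

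Of 18 listed genes of endothelial junctions and adhesion 11 were tested, and 6 rose and 0 fell in APAP (median 0.46) and 0 rose and 6 fell in COS+APAP relative to APAP (median -0.56). *Esam*, an adhesion molecule of endothelium and platelets, was at 1.86 and 2.28, 7.24 and 6.38, and 2.15 and 2.38 FPKM in control, APAP and COS+APAP. Its pattern had the shape of *Pecam1*, with a rise of 1.86 in APAP (adjusted p = 0.00183) and a fall of 1.57 in COS+APAP against APAP (adjusted p = 0.00786). *Jam2* rose by 1.01 (adjusted p = 0.0144) and fell by 1.04 (adjusted p = 0.0259). *Vcam1*, a leukocyte adhesion molecule, rose by 1.95 in APAP (adjusted p = 0.00144) and stood 1.20 above control in COS+APAP (adjusted p = 0.0087). The tight junction gene *Cldn5* fell by 1.5 in COS+APAP relative to APAP (adjusted p = 0.017), and fell by 1.96 relative to control (adjusted p = 0.00899).

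Of 20 other listed genes of the sinusoidal wall 14 were tested, and 2 rose and 0 fell in APAP (median -0.03), 0 rose and 4 fell in COS+APAP relative to APAP (median -0.70), and 1 rose and 3 fell in COS+APAP relative to control (median -0.77). The gene that rose relative to control in both treated groups was *Aass*, by 1.39 (adjusted p = 0.00476) and 1.20 (adjusted p = 0.0158). Its levels, 39.7 to 115.3 FPKM, were the highest of this list, and its cell of origin was not tested. *Fcgr2b*, the receptor that clears immune complexes, was at 3.99 and 5.63, 3.79 and 3.30, and 1.45 and 1.35 FPKM in the 3 groups, and *Dnase1l3*, a secreted nuclease, at 4.70 and 5.01, 4.84 and 4.61, and 2.31 and 1.46. In both, COS+APAP libraries lay below all others, as in *Clec4g*. *Fcgr2b*, *Dnase1l3* and *Oit3*, a secreted protein gene of sinusoidal endothelium, fell by 1.32, 1.31 and 1.26 in COS+APAP relative to APAP (adjusted p = 0.013, 0.0175 and 0.0117) and by 1.61, 1.21 and 1.10 relative to control (adjusted p = 0.00798, 0.0208 and 0.0144). *Mrc1*, the mannose receptor that macrophages also make, rose by 0.55 in APAP (adjusted p = 0.034) and fell by 0.59 (adjusted p = 0.0468) in COS+APAP relative to APAP, the call lost in 10 of 17 and 12 of 16 alternatives.

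**Figure D3:**
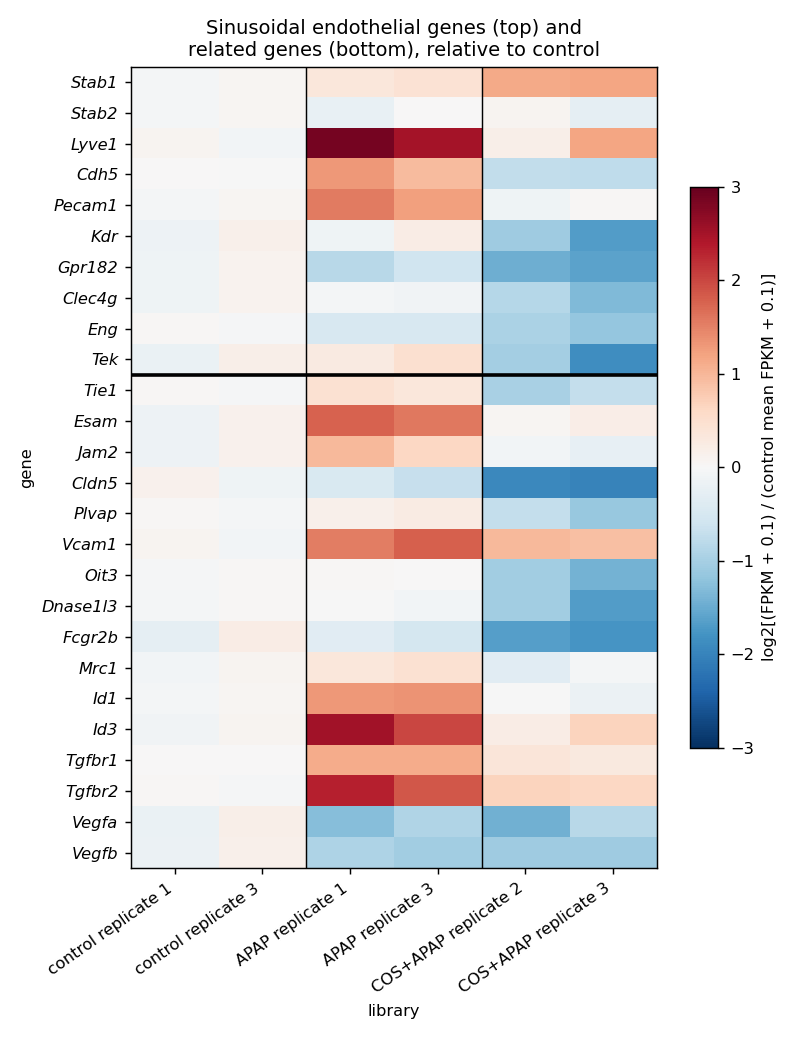
Level of the 10 genes (above the line) and of related endothelial genes, receptors and ligands (below) in each library, as log2 of (FPKM + 0.1) over the control mean plus 0.1; red is above and blue below the control mean. *Esam*, *Tgfbr2* and *Id3* are red in both APAP libraries, as *Lyve1*, *Cdh5* and *Pecam1* are, and *Fcgr2b*, *Cldn5*, *Oit3* and *Dnase1l3* are blue in both COS+APAP libraries, as *Kdr*, *Gpr182* and *Clec4g* are.

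Among 23 listed general endothelial genes 9 were tested, and 3 rose and 3 fell in APAP (median 0.55) and 1 rose and 2 fell in COS+APAP relative to APAP (median -0.85). *Ets1*, a transcription factor of endothelium and lymphocytes, rose by 1.47 (adjusted p = 0.0077) and fell by 1.32 (adjusted p = 0.0224), and *Ets2* rose by 3.48 in APAP (adjusted p = 0.00824). The nitric oxide synthase gene *Nos3* rose by 2.17 in APAP (adjusted p = 0.00493) and stood 1.24 above control in COS+APAP (adjusted p = 0.0456). *Nr2f2*, a factor of venous identity, fell by 1.70 in APAP (adjusted p = 0.00866), and *Prox1*, made by lymphatic endothelium and hepatocytes, fell by 1.08 (adjusted p = 0.0104) and rose by 1.14 in COS+APAP relative to APAP (adjusted p = 0.0197). Of 17 listed angiocrine genes 5 were tested, and 2 rose and 0 fell in APAP (median 0.34) and 0 rose and 2 fell in COS+APAP against APAP (median -0.96). *Adamts1*, a secreted protease, rose by 3.75 (adjusted p = 0.00131) and fell by 2.92 (adjusted p = 0.00589), and *Plvap*, the protein of endothelial diaphragms, fell by 1.09 in COS+APAP relative to APAP (adjusted p = 0.0128) and by 0.75 relative to control (adjusted p = 0.0295). *Thbd*, thrombomodulin, a brake on clotting listed with pericentral endothelium, was at 0.23 and 0.12, 9.49 and 6.34, and 0.51 and 0.51 FPKM in the 3 groups. It rose by 5.59 in APAP (adjusted p = 0.00123) and fell by 3.93 in COS+APAP against APAP (adjusted p = 0.00589), and *Fabp4*, the other of the 2 tested pericentral genes among 8 listed, rose by 1.63 in APAP (adjusted p = 0.00375). Both stood above control in COS+APAP, *Thbd* by 1.65 (adjusted p = 0.0316) and *Fabp4* by 1.53 (adjusted p = 0.0108). *Fabp4* was not called in COS+APAP relative to APAP (-0.11, adjusted p = 0.748). Of 7 listed periportal endothelial genes 1 was tested, and it fell in COS+APAP relative to APAP.

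Of 15 listed genes of hyaluronan handling 7 were tested, and 4 rose and 1 fell in APAP (median 0.89) and 3 rose and 1 fell in COS+APAP relative to APAP (median 0.40). *Hyal1*, a lysosomal hyaluronidase made by several liver cell types, fell by 1.27 in APAP (adjusted p = 0.00551) and rose by 1.47 in COS+APAP relative to APAP (adjusted p = 0.0108), the opposite of *Lyve1* in sign. It was the 1 gene of this list that fell in APAP. Those that rose were *Tnfaip6* (8.13, adjusted p = 0.0289), *Itih3* (1.48, adjusted p = 0.00249), *Itih4* (0.93, adjusted p = 0.0099) and *Itih2* (0.89, adjusted p = 0.00699). *Tnfaip6* was at 0.03 and 0 FPKM in control, and these *Itih* genes at 112 to 970 FPKM over the libraries. In COS+APAP relative to APAP, *Itih4* (1.48) and *Hyal2* (0.78) also rose, and *Itih2* fell (-0.69). Of 10 listed receptor shedding proteases and their regulators 5 were tested, and 3 rose and 0 fell in APAP (median 0.96) and 0 rose and 2 fell in COS+APAP against APAP (median -0.05). *Rhbdf2*, a regulator of the sheddase ADAM17, rose by 3.26 (adjusted p = 0.00709) and fell by 2.13 (adjusted p = 0.0402), and the inhibitor *Timp3* rose by 1.27 (adjusted p = 0.00403) and fell by 2.07 (adjusted p = 0.00575), to a log2 difference of -0.80 from control (adjusted p = 0.0301). The account of alternatives that follows leaves out *Aass*, *Tnfaip6*, *Hyal2*, *Itih2*, *Itih3* and *Itih4*. It also leaves out the calls of *Foxo1*, *Nos3*, *Thbd*, *Fabp4*, *Tgfbr1*, *Tgfbr2* and *Tie1* in COS+APAP relative to control. For the other related genes above, calls were lost with at least 1 alternative for *Vegfa*, *Vegfb*, *Plcg1*, *Jam2* and *Mrc1* in APAP relative to control. In COS+APAP relative to control, calls were lost for *Cldn5*, *Dnase1l3*, *Fcgr2b*, *Oit3*, *Plvap*, *Timp3*, *Vegfa* and *Vegfb*. The latter losses were in 9 of 16 alternatives for *Vegfa*, 7 for *Plvap* and 6 for *Timp3*. The fall of *Rhbdf2* relative to APAP lost its call in 7 of 16. In COS+APAP relative to APAP, *Adamts1*, *Esam*, *Hyal1*, *Id1*, *Thbd* and *Timp3* were called in all 16 alternatives, and the other related genes named as called there lost the call in at least 1, most often with 1 library left out.

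The share of counts from mitochondrial genes, a measure of RNA composition, differed between the groups without overlap, from lowest to highest 7.37% and 8.28% for the APAP libraries, 10.8% and 11.8% for those of COS+APAP and 12.8% and 16.1% for the controls. Some markers of other cells also differed between the groups, and the part of either in the results was not tested. Counts of called markers stand beside the shares of all tested genes, and a count near its share is not read as a result about a cell type. These shares were 23.3% higher and 22.1% lower in APAP relative to control, and 11.2% and 11.1% in COS+APAP relative to APAP. Kupffer cell markers, all 13 of them tested, summed to 128 and 150 FPKM in control, to 151 and 203 in APAP and to 151 and 158 in COS+APAP. Of these, 4 rose and 0 fell in APAP (median 0.63), and 1 rose and 1 fell in COS+APAP relative to APAP (median -0.27). *Marco*, a scavenger receptor of Kupffer cells, was at 4.89 and 4.78, 8.17 and 9.46, and 11.7 and 15.0 FPKM, with the groups in the order of *Stab1*, and rose by 1.00 (adjusted p = 0.00658) and by a further 0.62 (adjusted p = 0.0477, lost in 12 of 16 alternatives). *Adgre1*, the 1 marker that fell, was at 1.15 and 0.61, 1.47 and 1.78, and 0.40 and 0.63 FPKM. Its change in COS+APAP relative to APAP was -1.64 (adjusted p = 0.0415). The defining Kupffer cell genes *Clec4f* and *Vsig4* lay at 20.3 to 30.1 and 7.21 to 10.5 FPKM over the 6 libraries and passed in none of the comparisons. Stellate cell markers, 13 listed and 9 tested, summed to 83.9 and 89.0 FPKM in control, to 93.7 and 97.2 in APAP and to 37.1 and 59.4 in COS+APAP, with 3 higher and 0 lower in APAP (median 0.33) and 0 higher and 6 lower in COS+APAP relative to APAP (median -1.29). *Rgs5*, *Colec10* and *Dcn* fell by 2.16, 1.73 and 1.38 there (adjusted p = 0.00589, 0.00861 and 0.00899). Relative to control, COS+APAP had 0 stellate cell markers higher and 5 lower (median -0.87), beside 10.7% and 10.3% of all tested genes.

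Erythroid markers, 7 listed and 5 tested, summed to 269 and 298 FPKM in control, to 1080 and 1490 in APAP and to 310 and 317 in COS+APAP. Of these, 4 rose and 0 fell in APAP (median 2.09) and 0 rose and 4 fell in COS+APAP against APAP (median -1.99), with *Hbb-bs*, a beta globin, at 2.91 and -2.21 (adjusted p = 0.00147 and 0.00703). Platelet markers summed to 1.78 and 2.71 FPKM in control, to 5.80 and 9.53 in APAP and to 1.76 and 1.88 in COS+APAP, so that they were highest in APAP, as *Pecam1* and *Lyve1* were. Of 8 listed only *Pf4* was tested, with a rise of 1.42 (adjusted p = 0.0483) lost in 12 of 17 alternatives and a fall of 2.04 (adjusted p = 0.0327) lost in 5 of 16. Neutrophil markers, 8 listed and 4 tested, summed to 7.26 and 10.0 FPKM in control, to 58.7 and 83.3 in APAP and to 382 and 415 in COS+APAP, of which *Lcn2*, which hepatocytes also make, held 378 and 412 FPKM in COS+APAP, and *Ly6g* was at 0 in all libraries. Of the 4, 2 were higher and 0 lower in APAP (*Lcn2* and *S100a9*), and 1 higher (*Lcn2*) and 1 lower (*S100a9*) in COS+APAP against APAP. *S100a9* was at 2.85 and 2.89 FPKM in control, at 18.1 and 5.6 in APAP and at 1.99 and 1.47 in COS+APAP. Its changes were 2.19 (adjusted p = 0.0294) and -2.76 (adjusted p = 0.0295). *S100a8* and *Retnlg*, not called, also had their highest means in APAP, at 3.92 and 4.14 FPKM. Among the tested genes, only *Lcn2* thus rose with the sum from APAP to COS+APAP. Monocyte markers, 7 listed, summed to 4.14 to 5.32 FPKM in control, 19.1 to 35.9 in APAP and 5.65 to 5.69 in COS+APAP, with 1 of 2 tested higher, *Cd14*, at 4.63 (adjusted p = 0.00218), and 1 lower in COS+APAP against APAP, *Cd14* at -3.39 (adjusted p = 0.0108, lost without either COS+APAP library).

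Lymphatic endothelial markers, 6 listed and 3 tested, were read because *Lyve1* is shared with that endothelium. They summed to 11.1 to 13.8 FPKM over all 6 libraries, of which *Prox1*, a gene hepatocytes also express, held 3.49 to 10.5 FPKM. In APAP 1 of the 3 rose and 1 fell (median 0.43), and in COS+APAP relative to APAP 1 rose and 1 fell (median -0.53). *Ccl21a*, a chemokine of lymphatic endothelium with near-identical gene copies, so that its counts are uncertain, was at 1.3 and 0.58 FPKM in control, at 5.53 and 2.70 in APAP and at 0.80 and 0.44 in COS+APAP. It rose by 2.26 in APAP (adjusted p = 0.0294, lost without control replicate 3 or APAP replicate 1) and fell by 2.71 in COS+APAP relative to APAP (adjusted p = 0.0329, lost in 4 of 16 alternatives). *Mmrn1*, below the minimum for the test, was at 0.04 and 0.01 FPKM in control, at 0.86 and 0.26 in APAP and at 0.04 and 0.01 in COS+APAP. Both were highest in the APAP libraries, as *Lyve1* was, while *Prox1* was lowest there.

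Cholangiocyte markers had 1 of 3 higher in APAP and 2 lower in COS+APAP against APAP, the 1 tested mesothelial marker was not called, and none of the 8 lymphocyte markers reached the minimum. Of 12 hepatocyte markers, 3 rose and 3 fell in APAP, beside 23.3% and 22.1% of all tested genes. In COS+APAP relative to APAP 3 rose and 1 fell, beside 11.2% and 11.1%.

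**Figure D4:**
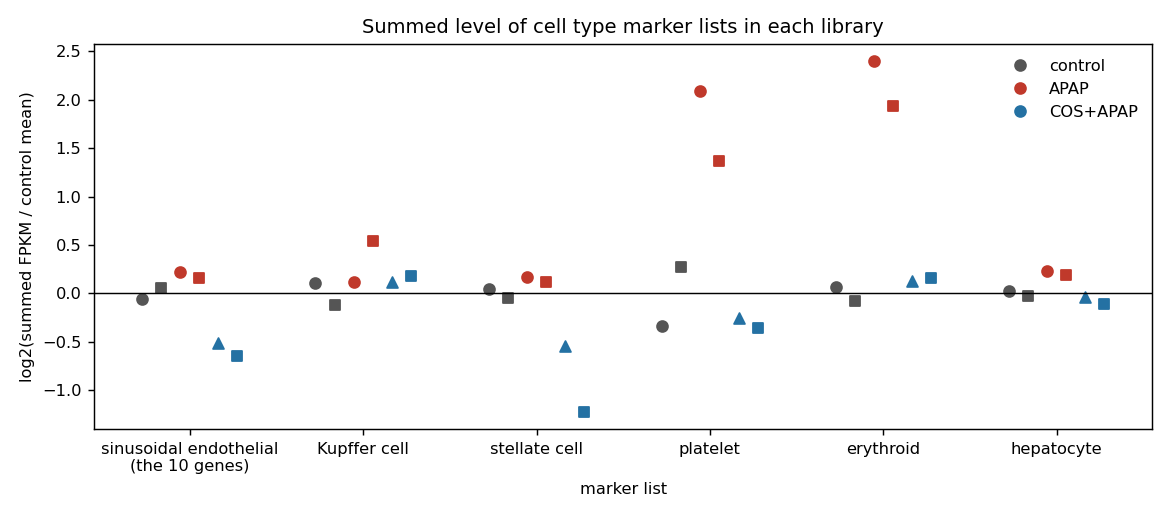
Summed FPKM of each marker list per library, as log2 of the ratio to the control mean; points are libraries and colours are groups. The 10 sinusoidal endothelial genes and the stellate cell markers lie below control in both COS+APAP libraries, and platelet and erythroid markers lie above control in both APAP libraries.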

How the data were processed

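Poly(A) RNA of mouse liver was sequenced in paired reads in 6 libraries, per the labels' protocols. HISAT2 2.0 and StringTie 1.3.0 are named in the submitters' processing notes, while the build of the genome was not given in the sources used here. Estimated counts of each gene, and FPKM (fragments per kilobase, scaled to depth), were deposited by the authors, per the file headers. The table had 6 further columns of sample values that match no sample and were not used. A count of 4 was held by 766 to 990 genes per library and a count of 3 by 290 to 350, so a count may not equal 1 fragment, and the totals of 71115112 to 76669799 counts are not read as numbers of fragments. Of 55141 gene identifiers shared with mouse GENCODE release M21, 94.2% had identical coordinates, as had 8 of the 10 genes (*Clec4g* and *Eng* differed at their ends).

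The counts were whole and entered edgeR 4.0.16 (R 4.3.3) as deposited. TMM scaling and the quasi-likelihood F test (two-sided) were applied in 1 model of 3 groups over 6 libraries (3 residual degrees of freedom), with Benjamini-Hochberg adjustment over the 10051 genes whose mean FPKM reached 1. The SE was taken as the size of the log2 fold change over the root of F. An exact permutation test of 2 libraries against 2 cannot go below p = 0.33, so calls rest on the spread shared across groups and genes. On simulated counts of 10051 genes for APAP relative to control, the test recovered 28.7% of 94 genes changed by a log2 size of 1 and 92.5% of 106 genes changed by 2, and called 9 unchanged genes. Only 200 genes were changed there, whereas 23.3% and 22.1% of all tested genes were called higher and lower in the data. The shares recovered therefore do not measure the power of the test in these data. Alternatives were DESeq2 1.42.0, limma 3.58.1 on log2(FPKM + 1) and log2(FPKM + 0.1), other scalings, other filters, counts divided by 4, only the groups compared, each library left out and a replicate block.

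The genes and all lists were chosen with earlier results of these data known. Genes named beside the 10 genes were drawn, from each list, from up to 3 called genes with the largest rise and 3 with the largest fall per comparison. The first 3 genes of cell type lists, and ligands and receptors of the 10 genes, were also eligible. Not every such gene is described. The ligands and receptors left out, such as *Flt1*, *Nrp1* and *Angpt2*, were below the minimum or called in no comparison. The genes overlapping the 10 genes were added later. For a symbol with several entries, the one with the highest mean FPKM was used (134 entries repeat a symbol). Promoter windows were cut to the bases before the start after matches in the whole windows had been seen, in which *Stab1*, *Stab2* and *Tek* had further matches behind the start.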

Additional observations from a re-analysis of the deposited data

How the results depend on the processing

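Of the 10 genes, *Stab1* in COS+APAP relative to APAP and to control, *Lyve1*, *Cdh5* and *Pecam1* in APAP, *Cdh5* in COS+APAP relative to APAP, and *Gpr182* in COS+APAP relative to control were called in every alternative run, and no called difference of the 10 genes changed its sign. *Stab2*, *Clec4g* and *Pecam1* changed sign where they were not called. In APAP relative to control *Stab2* and *Clec4g* were at -0.08 and -0.06 with upper-quartile scaling, -0.12 and -0.1 with library totals, -0.08 and -0.07 by limma with a pseudocount of 1 and -0.1 and -0.08 with 0.1, and ranged from -0.06 to 0.1 and from -0.05 to 0.17 with 1 library left out. In COS+APAP relative to control *Stab2* and *Pecam1* were at -0.11 and -0.07 with library totals, -0.07 and -0.03 by limma with 1 and -0.1 and -0.05 with 0.1, and *Stab2* ranged from -0.13 to 0.24 with 1 library left out (from -0.16 to 0.2 in COS+APAP relative to APAP). The genes among the 9 called lower in APAP were 2 under DESeq2, upper-quartile scaling, library totals and both limma fits, where *Eng* joined, 0 with no filter, and 0 to 1 with 1 library left out (0 without control replicate 3, APAP replicate 1 or APAP replicate 3). Those called lower in COS+APAP were 2 to 7 relative to APAP and 1 to 5 relative to control with 1 library left out, and those called higher relative to control 1 to 2. Over all genes, DESeq2 called 1746 higher and 1806 lower in COS+APAP relative to APAP, and 1698 and 1724 relative to control. Library totals gave 706 and 1644 relative to control, and limma 681 and 1638 with a pseudocount of 1, and 685 and 1562 with 0.1. With 1 library left out, 1531 to 2137 genes were higher in APAP, 278 to 949 higher and 324 to 992 lower in COS+APAP relative to APAP, and 308 to 851 and 282 to 894 relative to control. In these fits the lone library of an arm is assumed to vary like the other groups. The median of all genes moved to -0.12 in APAP and 0.12 in COS+APAP relative to APAP with upper-quartile scaling, and with library totals to -0.15 in APAP and -0.16 in COS+APAP, both relative to control; limma, on deposited FPKM, gave -0.13 in both with a pseudocount of 0.1. Replicate numbers 1 and 3 are shared by control and APAP. Deviations of same-numbered libraries from their group means correlated at r = 0.0175. Both pairs give this same value by construction, since the deviations of 2 libraries from their mean mirror each other. It cannot decide whether the numbers mark a pairing. With the replicate block, 1735 genes were higher and 1599 lower in APAP, 3 of the 9 genes higher and 0 lower; *Stab1* (0.51, adjusted p = 0.0522) and *Gpr182* (-0.61, adjusted p = 0.0578) were no longer called. COS+APAP shares 1 number with each other group, so no such fit was made for it. The cause of these shifts was not tested. Simulated counts, where 28.7% of changes of log2 size 1 were recovered, held fewer changed genes than were called in the data. *Tek*, with a mean below 1 FPKM, had 89 to 628 estimated counts per library, which are not read as numbers of fragments.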
